A study of Homo sapiens with 3 samples.

Results

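The 36 genes described here make, convert and break down sphingolipids, and they were chosen by symbol as the enzymes, subunits and inhibitors of ceramide synthesis, ceramide use and ceramide breakdown. All 36 were found by Ensembl identifier among the 62754 genes of the table. RNA-seq was measured in 3 replicates of MCF10A, a human line of breast epithelium that is immortalized but does not form tumors. Libraries were made from 300 ng RNA after removal of ribosomal RNA. By the labels and the design text of the series there was a single group, EV, of untreated cells that carried the Retro-X Tet-One inducible vector with no gene in it, had been selected with puromycin and received no doxycycline. All 3 replicates belong to this group and to batch 1, so the data allow a description of levels and of their spread, but no comparison between conditions. Nothing in the labels says whether the replicates come from separate cultures, so their spread may be technical, and the data are those of 1 line.

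Sphingolipids are built on a sphingoid base rather than on glycerol. Serine palmitoyltransferase (SPT) at the endoplasmic reticulum condenses serine with palmitoyl-CoA, ceramide synthases attach a second acyl chain, and a desaturase completes ceramide, the hub from which sphingomyelin, glycosphingolipids and ceramide-1-phosphate are made. Breakdown runs back through ceramide to sphingosine, which is phosphorylated to the signaling lipid sphingosine-1-phosphate and finally cleaved by a lyase. In stratified epithelia, ceramides with very long and ultra-long acyl chains also build the lipid barrier.

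The values are TPM, that is, reads per base of a gene, scaled so that each replicate sums to 1000000. With the lengths in GENCODE release 44, replicates 1, 2 and 3 came to 15273329, 15446347 and 11166546 reads, of which 30215, 30020 and 21853 fell on the 36 genes. In such bulk RNA, fewer cells with a transcript and less of it per cell cannot be told apart. The share of TPM on RN7SL1, the RNA of the signal recognition particle, was 4.93%, 5.66% and 15.1% in replicates 1, 2 and 3, and that on all protein-coding genes 91.5%, 89.8% and 79.6%. By the labels, replicates 1 and 2 are different libraries, and these 2 alone differed beyond counting error in 21.3% of 14980 genes. All 7 basal and general epithelial markers were at or above 1 TPM, from EPCAM at 14.6 TPM to KRT5 at 6612 TPM, with sums of 15390, 14917 and 11933 TPM in replicates 1, 2 and 3. The 5 immune markers summed to between 0.0621 and 0.586 TPM and the 3 adipocyte markers to between 0.190 and 0.645 TPM, with CD3E, CD79A and ADIPOQ at 0 reads. Of the 6 fibroblast markers, DCN (9.05 TPM) and COL1A1 (4.96 TPM) were above 1 TPM and COL1A2, PDGFRA and LUM at 0 reads, with a sum between 13.4 and 14.4 TPM. PECAM1 (1.77 TPM) was the only 1 of 4 endothelial markers above 1 TPM, with CDH5 at 0 reads and a sum between 1.77 and 2.16 TPM. Of the 5 luminal markers, AREG was at 1769 TPM and FOXA1, on both sides of 1 TPM, at 1.11 TPM, while ESR1 had 3 reads in all, PGR 1 read and ANKRD30A 0 reads.

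By the mean of the replicates, 29 of the 36 sphingolipid genes were at or above 1 TPM, the level at which the study counted an enzyme as expressed, and the same 29 were at or above it in every replicate. Over all genes of the table this share was 24.9%, and over protein-coding genes 56.7%. The 7 genes below it were SPTSSB, DEGS2, CERS1, CERS3, CERS4, SMPD3 and ACER1, and each has a relative with the same or a similar reaction above 1 TPM. The levels of the 29 genes lay between 5.65 TPM for ACER2 and 386 TPM for CERS2, with a median of 27.1 TPM, near the median of 24.9 TPM over the 11360 protein-coding genes at or above 1 TPM. Of the 29 genes, 6 had at least 50 TPM, namely CERS2, DEGS1, SMPD4, KDSR, CERK and ORMDL1, and 21 lay between 10 and 50 TPM. Per base of the canonical transcript, scaled again to 1000000, SPTLC1 at 64.2 TPM and ASAH1 at 50.8 TPM were also above 50 TPM. CERK was at 46.1 TPM on that scale, though its length was nearly the same (4442 against 4429 bases). The new scaling, which follows from the canonical lengths of all genes and lowers genes of unchanged length, thus took CERK below 50 TPM. CERS2 was higher than 97.3% and DEGS1 than 96.7% of the expressed protein-coding genes, while ACER2 was higher than 17.0% of them.

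**Figure D1:**
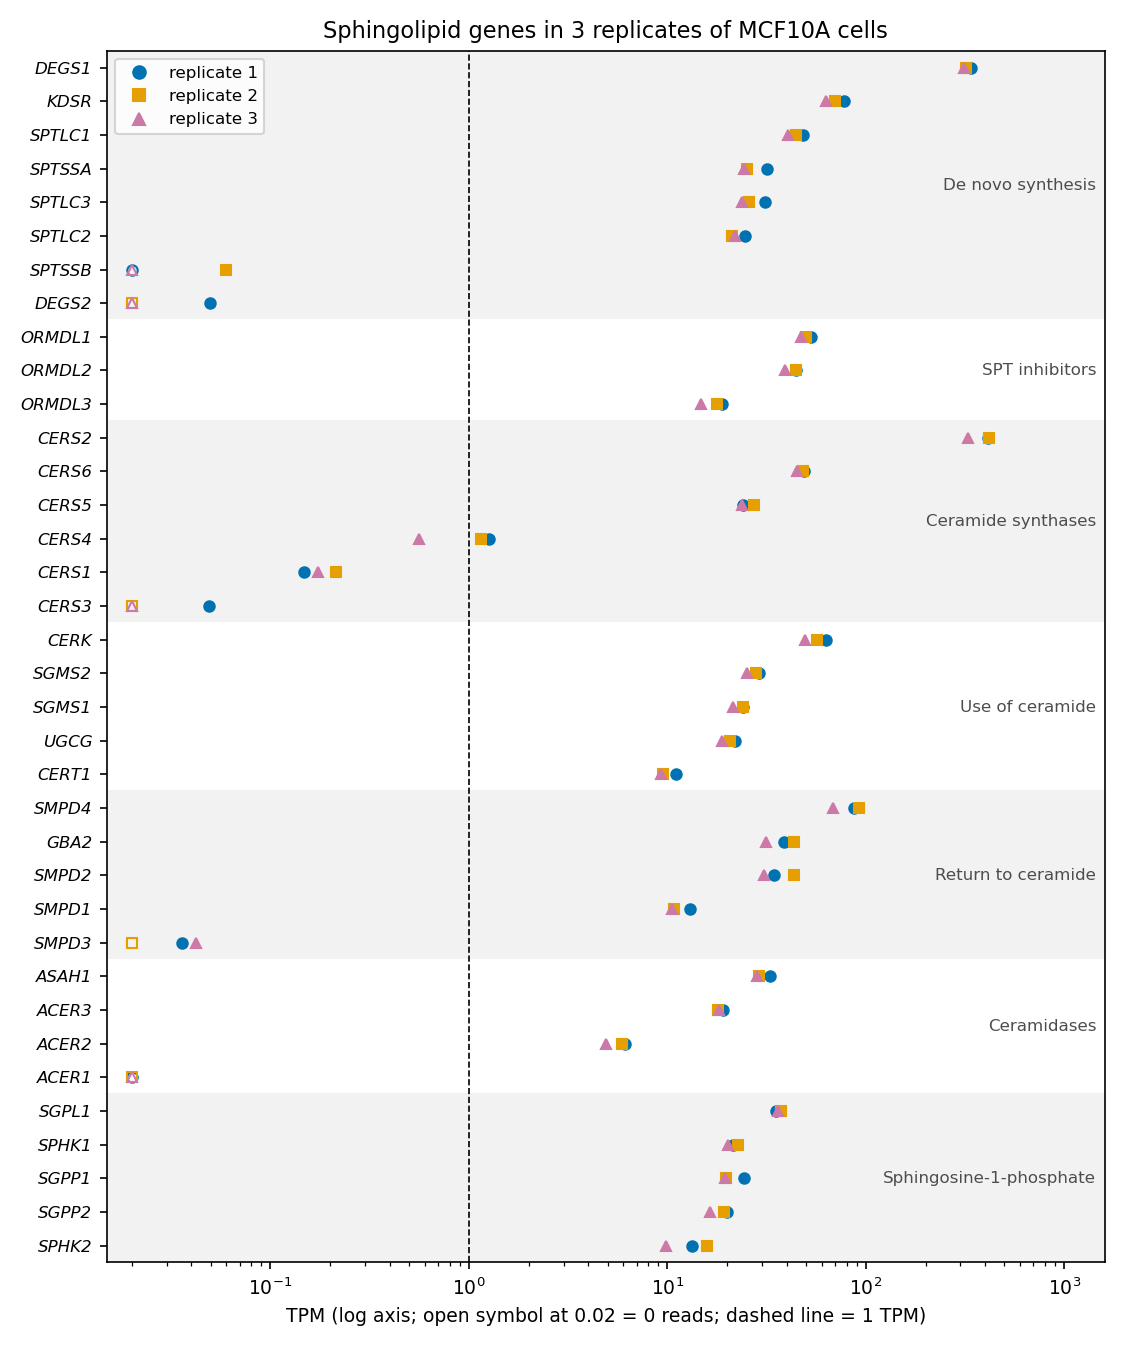
TPM of the 36 sphingolipid genes on a log axis, in replicates 1 (circles), 2 (squares) and 3 (triangles), grouped by role and ordered by mean within each role. Open symbols stand for 0 reads and are drawn at 0.02. The 29 genes to the right of the line at 1 TPM lie there in all 3 replicates, and CERS4 is the only gene with replicates on both sides of it.

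In the de novo branch, every step had at least 1 gene above 1 TPM. SPTLC1, the subunit that all SPT complexes share, was measured at 48.2, 44.5 and 40.7 TPM in replicates 1, 2 and 3. It pairs with either of 2 catalytic subunits. SPTLC2, which favors palmitoyl-CoA, was measured at 24.6, 21.2 and 22.04 TPM. SPTLC3, which widens the range of acyl-CoA and hence of sphingoid bases, was measured at 31.2, 25.7 and 23.8 TPM. Both catalytic subunits were thus present at similar levels, with SPTLC3 above SPTLC2 in 3 of 3 replicates by 0.24 ± 0.12 on the log2 scale (SD, n = 3). The log2 ratios were 0.34, 0.27 and 0.11 in replicates 1, 2 and 3. Their mean exceeded 1 SD with the same order in 3 of 3, the rule used here for a difference beyond the spread. This rule is lenient, since pairs were ordered by their means in these same replicates, and every pair of isoforms compared in this way passed it. The number of reads, not divided by length, was higher for SPTLC2, whose transcript is longer (8022 against 6179 bases). The level of SPTLC1 was 0.901 ± 0.0432 times the sum of the levels of SPTLC2 and SPTLC3 (SD, n = 3). This ratio turned with the length, being 1.59 ± 0.0762 per base of the canonical transcripts (SD, n = 3), since SPTLC1 has a canonical transcript of 2783 bases against the 4906 used for the deposited values.

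The small subunits that activate SPT were split clearly. SPTSSA was measured at 31.7, 25.3 and 24.4 TPM from 444, 364 and 291 reads. SPTSSB, which shifts the enzyme toward longer bases, had 0, 1 and 0 reads, and 3 reads would have been 0.184, 0.179 and 0.216 TPM. KDSR, which reduces the ketone made by SPT, was among the higher genes at 77.6, 69.6 and 63.3 TPM. DEGS1, the desaturase that introduces the double bond of ceramide, was higher still at 339, 319 and 314 TPM, or 4.64 ± 0.304 times KDSR (SD, n = 3). Its relative DEGS2, which also acts as a hydroxylase and makes phytoceramide, had 1, 0 and 0 reads, and 3 reads would have been 0.149, 0.145 and 0.175 TPM. SPTSSB and DEGS2 were therefore at or below the limit that these depths can resolve in every replicate.

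The ORMDL proteins bind SPT and inhibit it when ceramide is plentiful, and all 3 genes were above 1 TPM. ORMDL1 was measured at 53.1, 50.2 and 46.9 TPM, ORMDL2 at 44.5, 44.6 and 39.1 TPM and ORMDL3 at 18.8, 17.8 and 14.8 TPM. ORMDL1 was above ORMDL2 by 0.23 ± 0.052 and ORMDL2 above ORMDL3 by 1.32 ± 0.075 on the log2 scale (SD, n = 3 each), in 3 of 3 replicates for both. Their summed level was 2.47 ± 0.0599 times that of SPTLC1 with the deposited values and 1.57 ± 0.0363 times per base of the canonical transcripts (SD, n = 3 each). The use of strand in counting is not given in the sources used here, and 58.5% of the canonical ORMDL2 transcript lies opposite to other genes, DNAJC14 among them.
To show how far the reads of the leading pair can be told apart, the first 120 coding bases of ORMDL1 and ORMDL2 are given from the GENCODE transcripts (hg38), with the positions at which they differ in capitals. They lie within 1 exon each, at chr2:189782476-189782595 on the minus strand for ORMDL1 and chr12:55819000-55819119 on the plus strand for ORMDL2.
ORMDL1: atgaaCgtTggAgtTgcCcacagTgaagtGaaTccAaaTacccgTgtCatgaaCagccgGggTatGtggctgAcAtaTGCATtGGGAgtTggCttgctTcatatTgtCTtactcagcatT
ORMDL2: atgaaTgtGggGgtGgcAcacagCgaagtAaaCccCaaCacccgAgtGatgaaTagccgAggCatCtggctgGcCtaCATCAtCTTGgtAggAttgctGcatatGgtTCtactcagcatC
Of these 120 positions, 34 differed. Over the whole coding sequence of 462 bases, without gaps, identity was 73.4%, and the longest identical run was 11 bases. None of the 50-base stretches of the ORMDL1 transcript occurred in a transcript of another gene, and 1.27% of those of ORMDL2 did.

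Among the ceramide synthases, which differ in the chain length of the acyl-CoA they attach, CERS2 led by a wide margin. CERS2, the synthase for very-long-chain ceramides, was measured at 411, 419 and 327 TPM, with replicate 3 the lowest. CERS6 and CERS5, both of which make ceramides with palmitate-length chains, followed at 48.7, 48.2 and 45.0 TPM and at 23.9, 27.5 and 23.7 TPM. CERS2 held 84.7%, 84.4% and 82.5% of the summed TPM of the 6 synthases, CERS6 10.03%, 9.73% and 11.3% and CERS5 4.93%, 5.55% and 5.99%. CERS2 was above CERS6 by 3.02 ± 0.14 and CERS6 above CERS5 by 0.92 ± 0.11 on the log2 scale (SD, n = 3 each), in 3 of 3 replicates for both. For CERS2 and CERS6, 33.5% and 44.1% of the canonical transcript lie opposite to a non-coding gene on the other strand.
The other 3 synthases were low. CERS4, which prefers stearate-length and slightly longer chains, was measured at 1.27, 1.16 and 0.559 TPM from 16, 15 and 6 reads. It was the 1 gene of the 36 with replicates on both sides of 1 TPM, against 6.5% of all genes and 2.84% of protein-coding genes. Its mean of 0.995 TPM was just under 1 TPM, and its reads did not differ between replicates beyond counting error by the chi-square test with Benjamini-Hochberg adjustment over all genes (adjusted p = 0.269). CERS3, the synthase of the ultra-long chains of the skin barrier, had 1, 0 and 0 reads, and 3 reads would have been 0.147, 0.143 and 0.172 TPM. CERS1 had 2, 3 and 2 reads, but GDF1 lies on the same strand over 100% of the canonical CERS1 transcript and had 0 reads in every replicate. Reads from this locus cannot be told apart by gene, and the level of CERS1 is uncertain. CERS1, like CERS4, uses stearate-length chains and is best known from neurons and muscle.

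**Figure D2:**
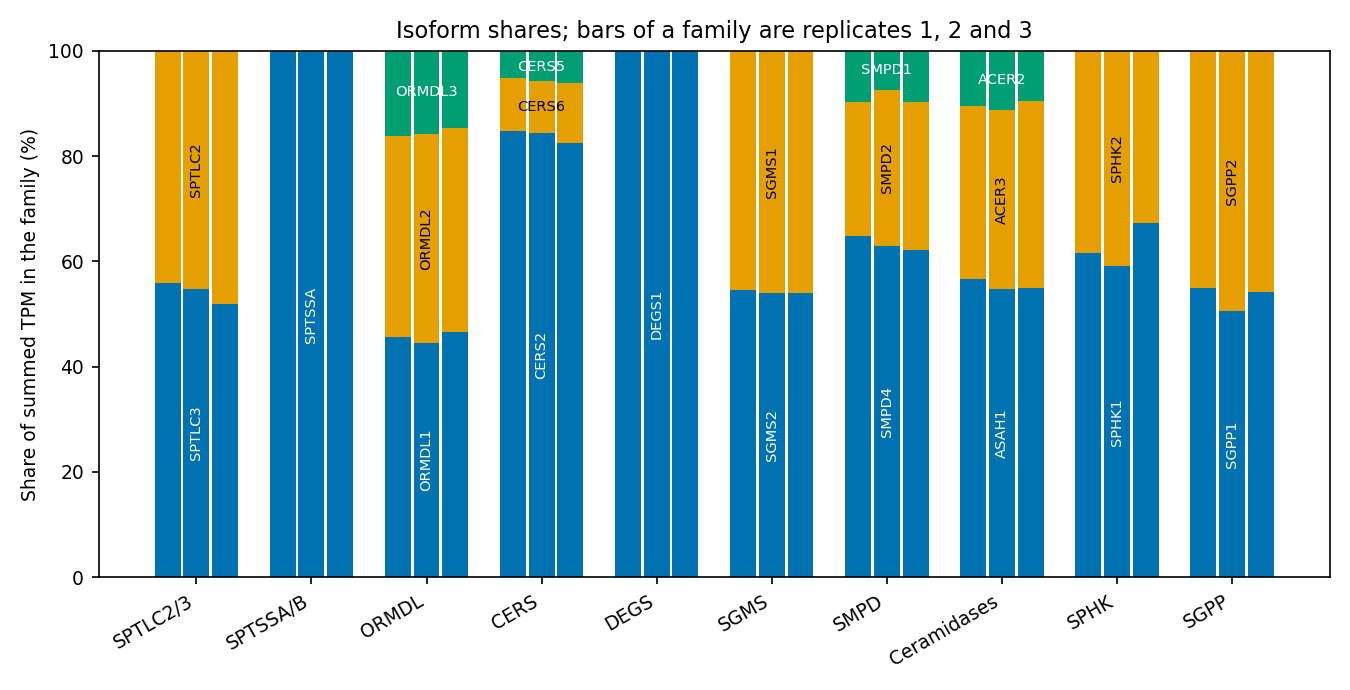
Share of each isoform in the summed TPM of its family, in percent, with 3 bars per family for replicates 1, 2 and 3. CERS2 fills between 82.5% and 84.7% of its family and SPTSSA and DEGS1 nearly the whole of theirs, while SPTLC3 and SPTLC2, SGMS2 and SGMS1, and SGPP1 and SGPP2 divide theirs almost evenly.

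Ceramide is passed on by several genes, all above 1 TPM. CERT1, which carries ceramide from the endoplasmic reticulum to the Golgi, was measured at 11.1, 9.47 and 9.29 TPM. Its canonical transcript of 3868 bases is shorter than the longest one by which the deposited values were divided, and per base of the canonical transcript its mean was 16.8 TPM, level with UGCG at 16.8 TPM on that scale. The sphingomyelin synthases SGMS1 of the Golgi and SGMS2, found also at the plasma membrane, were nearly level. SGMS1 was measured at 24.2, 24.0 and 21.5 TPM and SGMS2 at 29.1, 28.1 and 25.2 TPM. SGMS2 was above SGMS1 by 0.24 ± 0.022 on the log2 scale in 3 of 3 replicates (SD, n = 3), the smallest SD among the 13 pairs of neighboring isoforms compared. UGCG, which adds glucose to ceramide and opens the glycosphingolipid branch, was measured at 22.05, 20.7 and 18.9 TPM. CERK, the kinase that makes ceramide-1-phosphate, was measured at 63.1, 56.9 and 49.3 TPM, or 2.74 ± 0.124 times UGCG (SD, n = 3).

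The genes that return complex lipids to ceramide were led by SMPD4, a neutral sphingomyelinase of the endoplasmic reticulum and nuclear envelope. SMPD4 was measured at 87.2, 92.1 and 68.1 TPM. Of the 50-base stretches of its longest transcript, 26.8% also occur in transcripts of other genes, nearly all in the pseudogene SMPD4BP, which had 17.2, 21.8 and 14.9 TPM from 341, 444 and 252 reads. How reads common to both were assigned is not given in the sources used here, and the level of SMPD4 is uncertain to that extent. SMPD2, another neutral sphingomyelinase, was measured at 34.5, 43.3 and 30.8 TPM and SMPD1, the acid sphingomyelinase of lysosomes, at 13.0, 10.8 and 10.5 TPM. Of the canonical SMPD2 transcript, 26.6% lies opposite to PPIL6. SMPD4 was above SMPD2 by 1.19 ± 0.13 and SMPD2 above SMPD1 by 1.65 ± 0.31 on the log2 scale (SD, n = 3 each), in 3 of 3 replicates for both. SMPD3, the neutral sphingomyelinase of the Golgi and plasma membrane that is known from bone and cartilage, had 1, 0 and 1 reads. GBA2, the non-lysosomal glucosylceramidase, was measured at 38.7, 43.4 and 31.3 TPM.

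Of the ceramidases, which release sphingosine from ceramide, 3 of 4 were above 1 TPM. ASAH1, the acid ceramidase of lysosomes, was measured at 32.9, 29.0 and 28.2 TPM. ACER3, the alkaline ceramidase with a preference for unsaturated long chains, was measured at 19.2, 18.0 and 18.3 TPM and ACER2, that of the Golgi, at 6.10, 5.94 and 4.92 TPM. ASAH1 held 56.6%, 54.7% and 54.9% of the summed TPM, and the order ASAH1, ACER3, ACER2 was the same in 3 of 3 replicates. The gap between ASAH1 and ACER3 depends on the length, since it was 0.70 ± 0.079 with the longest transcript and 1.74 ± 0.079 with the canonical one on the log2 scale (SD, n = 3 each). Of the 50-base stretches of ACER2, 9.84% also occur in the pseudogene ACER2P1, which had 0 reads, but how reads common to both were assigned is not given. ACER1, an alkaline ceramidase of differentiating epidermis, had 0 reads in every replicate, which allows up to 0.4003, 0.389 and 0.470 TPM.

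Sphingosine-1-phosphate can be made by kinases, dephosphorylated by phosphatases or cleaved by the lyase, and all 5 genes for this were above 1 TPM. SPHK1, the kinase of the cytosol and plasma membrane, was measured at 21.4, 22.8 and 20.3 TPM and SPHK2, which is found also in the nucleus, at 13.3, 15.8 and 9.85 TPM. Of the canonical transcript, 20.6% of SPHK2 lies opposite to other genes, DBP among them. SPHK1 was above SPHK2 by 0.75 ± 0.26 on the log2 scale in 3 of 3 replicates (SD, n = 3). The phosphatases SGPP1 at 24.4, 19.7 and 19.5 TPM and SGPP2 at 20.0, 19.2 and 16.5 TPM were close to each other. SGPP1 was higher in 3 of 3 replicates by 0.18 ± 0.14 on the log2 scale (SD, n = 3), but only by 0.031 in replicate 2. SGPP2, whose transcript is longer (4978 against 3333 bases), had more reads before division by length. SGPL1, the lyase that ends the pathway, was measured at 35.5, 37.3 and 36.2 TPM, or 1.06 ± 0.123 times the sum of the kinases (SD, n = 3). Per base of the canonical transcripts this ratio was 0.828 ± 0.0884 (SD, n = 3), so that it lay on either side of 1 depending on the length. Of its canonical transcript, 14.1% is shared with ENSG00000289738, which had 0 reads. An exact sign-flip permutation test over 3 replicates cannot go below p = 0.25 (two-sided), so for these within-replicate ratios the number of replicates with the same order is given instead.

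Between replicates, the 29 genes had a median SD of log2(TPM + 1) of 0.13, against 0.16 over protein-coding genes and 0.19 over all genes at or above 1 TPM. Without replicate 3 it was 0.066. With the deposited TPM, the SD was lowest for SGPL1 at 0.037 and highest for SPHK2 at 0.32. These ranks and the counts that follow hold for that scale. With TPM rescaled to protein-coding genes, the SD of SGPL1 rose from 0.953 to 3.36 TPM. That of SGMS2 fell from 2.02 to 0.240 TPM. The median SD of log2(TPM + 1) was then 0.088, over the 30 sphingolipid genes at or above 1 TPM on that scale. Of the 29 genes, 19 lay below the median of protein-coding genes in the same range of TPM. Above the upper quartile of those genes lay 5, namely SPHK2, SMPD2, GBA2, SMPD4 and CERS2. Below the lower quartile lay 11, namely SGPL1, ACER3, DEGS1, CERS6, SPHK1, ORMDL1, ORMDL2, SGMS1, SGMS2, SPTLC2 and UGCG. These are descriptions of 3 libraries.

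**Figure D3:**
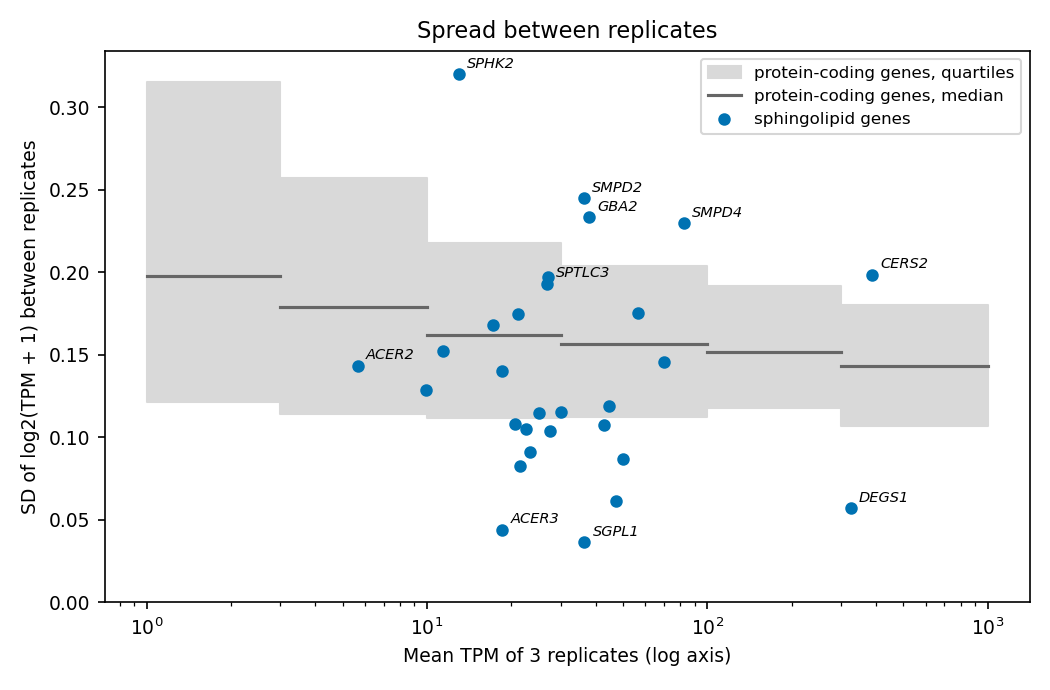
SD of log2(TPM + 1) between the 3 replicates against mean TPM on a log axis, for the 29 sphingolipid genes at or above 1 TPM (points) and for protein-coding genes in 6 ranges of TPM (line for the median, grey band for the quartiles). With the deposited TPM, SPHK2 stands highest at 0.32 and SGPL1 lowest at 0.037.

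To separate counting error from differences between libraries, the reads of each gene were compared with equal TPM in the 3 replicates. Of 30 sphingolipid genes with at least 15 reads in all, 17 differed by the chi-square test with Benjamini-Hochberg adjustment over 15802 genes, against 54.3% of all genes tested and 61.3% of protein-coding genes. The genes with the lowest adjusted p were CERS2 (5.87e-34) and SMPD4 (4.77e-19), both with replicate 3 lowest, from 14950 and 6163 reads in all. For SGPL1, ACER3, ACER2 and SPHK1 the adjusted p lay between 0.464 and 0.549, and 13 genes in all did not pass. The test depends on what TPM is relative to. When each replicate was rescaled by the median ratio of genes with at least 10 TPM in every replicate, 13 sphingolipid genes passed against 31.1% of all genes, and 11 of them were among the 17. The 2 genes that passed only then were SGPL1 and ACER3. Without replicate 1, 8 genes passed against 46.7% of all genes, without replicate 2, 16 genes against 46.7%, and without replicate 3, 8 genes against 21.3%.

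Replicate 3 was the lowest for 24 of the 27 sphingolipid genes with at least 10 TPM, against 82.8% of all genes and 84.3% of protein-coding genes at that level. SPTLC2 and ACER3 were lowest in replicate 2 and SGPL1 in replicate 1. The median log2 ratio of replicate 3 to replicate 1 was -0.23 over these 27 genes and -0.25 over all protein-coding genes at that level. The ratios ran from -0.43 for SPHK2 to 0.029 for SGPL1. Between replicates 2 and 1 the median was -0.073 over the 27 genes and -0.016 over protein-coding genes, from -0.33 for SPTSSA to 0.33 for SMPD2. The lower TPM in replicate 3 went along with its higher share of RN7SL1 given above, whose part in these values was not tested.

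**Figure D4:**
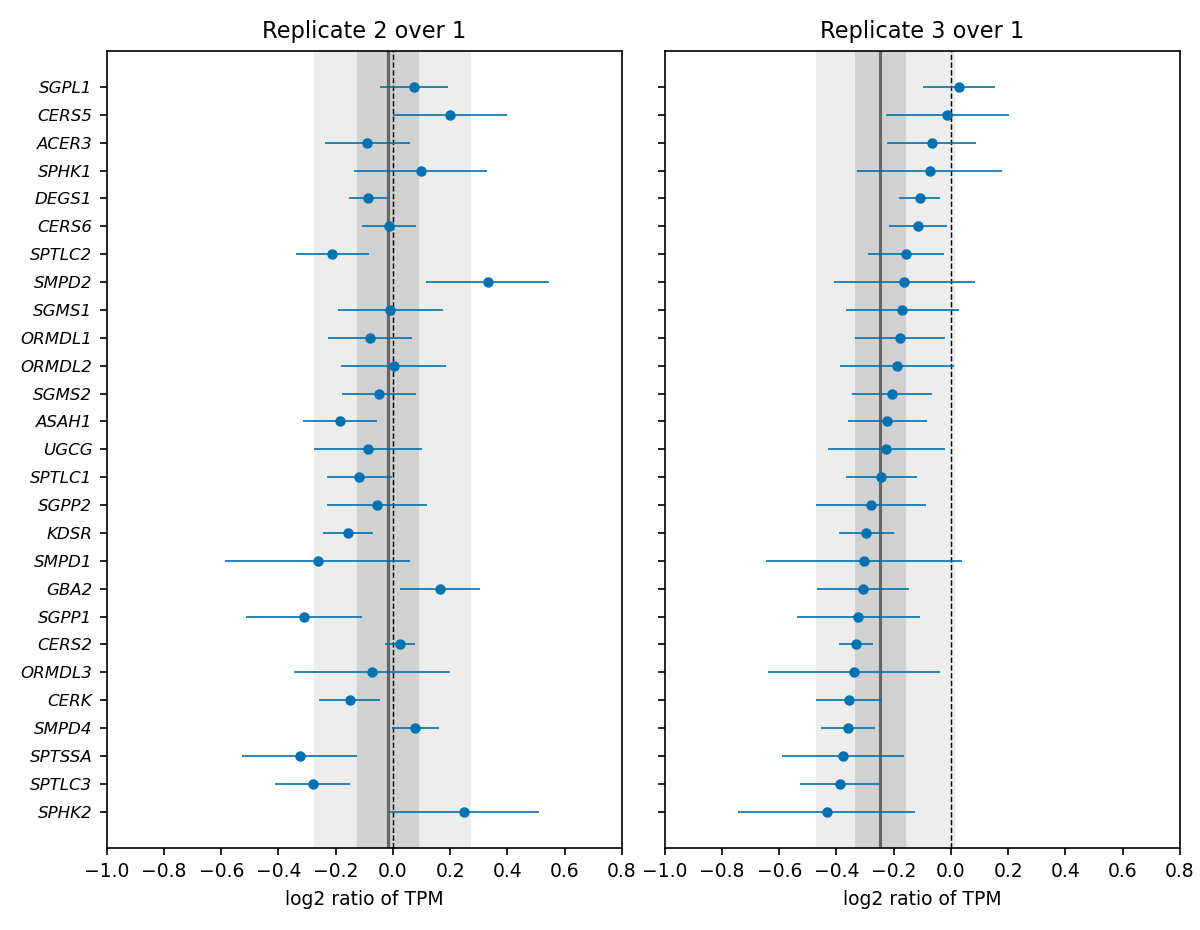
log2 ratio of TPM in replicate 2 over 1 (left) and 3 over 1 (right) for the 27 sphingolipid genes with at least 10 TPM, with bars for the 95% counting error of the reads. The line and the grey bands are the median, the central 50% and the central 90% of protein-coding genes at that level. Most points on the right follow the shifted median of -0.25, and SGPL1 sits at 0.029.

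The low relatives differed among themselves in promoter sequence. For 29 of the 36 genes a RefSeq promoter window (GRCh38.p14) was at hand, from 250 bases before to 50 after the start, and where a gene had several, the one nearest to the start of the GENCODE canonical transcript was used. The ratio of observed to expected CpG dinucleotides had a median of 0.906 over the 24 genes at or above 1 TPM, against 0.862 over 9343 protein-coding genes at that level. Only ORMDL2, at 0.560, was below 0.6 among these 24. Of the 5 genes below 1 TPM with a window, CERS3 at 0.235 and ACER1 at 0.340 were poor in CpG and SPTSSB at 0.613 was in between. DEGS2 at 0.895 and CERS1 at 0.956 were as rich as the expressed genes, but the level of CERS1 is uncertain because GDF1 overlaps it. The median over 5964 protein-coding genes below 1 TPM was 0.403. The 250 bases before the start, which hold no annotated exon, are printed for DEGS1 and its low relative DEGS2, which are alike in CpG but not in level, and for ACER1, which is poor in CpG. CpG dinucleotides are in capitals, 32 for DEGS1, 30 for DEGS2 and 7 for ACER1. They lie at chr1:224182990-224183239 on the plus strand, chr14:100159646-100159895 on the minus strand and chr19:6333613-6333862 on the minus strand.
DEGS1: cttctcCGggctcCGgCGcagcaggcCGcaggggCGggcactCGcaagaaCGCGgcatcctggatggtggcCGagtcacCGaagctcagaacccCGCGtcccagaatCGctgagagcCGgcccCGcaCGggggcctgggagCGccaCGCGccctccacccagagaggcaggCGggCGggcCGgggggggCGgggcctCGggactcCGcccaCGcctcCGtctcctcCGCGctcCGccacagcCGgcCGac
DEGS2: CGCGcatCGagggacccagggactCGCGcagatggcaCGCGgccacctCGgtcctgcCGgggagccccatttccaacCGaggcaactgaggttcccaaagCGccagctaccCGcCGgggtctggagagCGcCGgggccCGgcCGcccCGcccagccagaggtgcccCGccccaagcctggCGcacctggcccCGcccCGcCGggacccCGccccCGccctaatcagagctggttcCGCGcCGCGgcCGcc
ACER1: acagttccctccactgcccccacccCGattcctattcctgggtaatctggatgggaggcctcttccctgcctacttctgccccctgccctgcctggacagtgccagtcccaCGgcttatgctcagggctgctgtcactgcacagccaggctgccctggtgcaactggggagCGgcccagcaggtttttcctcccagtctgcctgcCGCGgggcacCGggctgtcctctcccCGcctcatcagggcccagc
DEGS1 and DEGS2 are thus close in CpG count, at 324 and 0.0165 TPM by the mean. Of 4 motifs searched on both strands of the 300 bases, none of which contains another, GGGCGG was in 22 of the 24 windows of genes at or above 1 TPM, against 74.8% of protein-coding windows at that level. It was in 3 of the 5 below 1 TPM, against 41.3% there, and in 61.8% of all 15307 protein-coding windows. CCAAT was in 6 of the 29 windows against 36.6% of all, TATAAA in 0 against 9.41% and CACGTG in 0 against 8.87%. A match or its lack describes these letters and says nothing about a factor.

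**Figure D5:**
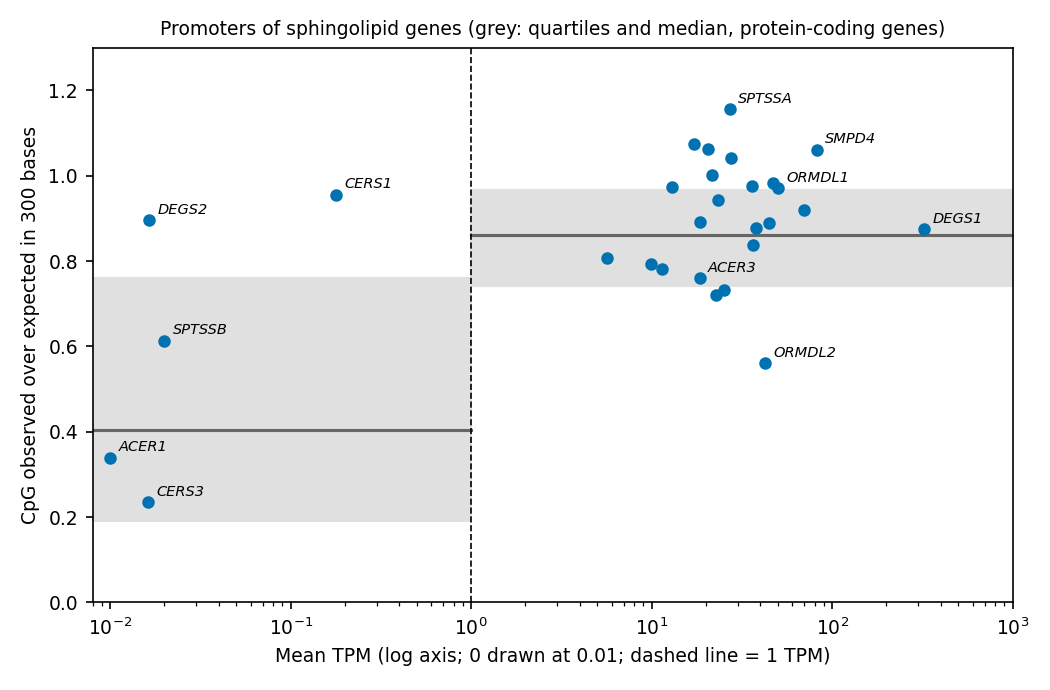
Ratio of observed to expected CpG in the 300 bases of promoter against mean TPM on a log axis, for 29 sphingolipid genes (points, 0 TPM drawn at 0.01), with the median and quartiles of protein-coding genes below and at or above 1 TPM in grey. DEGS2 and CERS1 lie at 0.895 and 0.956 on the left side, level with the expressed genes. The level of CERS1 is uncertain because GDF1 overlaps it.

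The neighboring pathways were read from 5 lists with 66 genes. Beside 24.9% of all genes and 56.7% of protein-coding genes, 51 of the 66 were at or above 1 TPM by the mean. For the supply of very-long-chain acyl-CoA and the modification of sphingoid bases, 15 of 17 genes were above it. The highest were DBI, the acyl-CoA binding protein, at 460, 493 and 492 TPM and ELOVL1, an elongase of the saturated chains that CERS2 uses, at 148, 151 and 119 TPM. The other 2 were ELOVL2 and FA2H, the hydroxylase of fatty acids in sphingolipids, with 4 and 2 reads in all. For glycosphingolipid synthesis, 10 of 12 genes were above 1 TPM, led by B3GNT5, which starts the lacto-series, at 93.1, 77.9 and 76.5 TPM and GLTP, a glycolipid transfer protein, at 50.2, 51.3 and 44.01 TPM. B3GALT4, which extends gangliosides, was measured at 1.45, 1.74 and 0.655 TPM from 13, 16 and 5 reads and was the only gene of the 5 lists with replicates on both sides of 1 TPM.
For lysosomal and extracellular breakdown, 12 of 15 genes were above 1 TPM. PSAP, the precursor of the saposins, was measured at 353, 319 and 311 TPM and NPC2, a lysosomal sterol carrier, at 165, 154 and 131 TPM. For the export and sensing of sphingosine-1-phosphate, 6 of 11 genes were above 1 TPM, near the share of 56.7% over protein-coding genes. That list also holds lipid phosphate phosphatases. ABCC1, a transporter with many substrates, was measured at 67.3, 73.4 and 55.9 TPM and PLPP1, a lipid phosphate phosphatase, at 11.7, 11.6 and 12.1 TPM. Of the 5 receptors in that list, S1PR3 at 5.54 TPM and S1PR2 at 2.08 TPM were above 1 TPM. S1PR1 was at 0.653 TPM, S1PR4 had 5 reads in all and S1PR5 none. The exporter SPNS2 had 1 read in all. Of the 11 transfer proteins and other relatives, 8 were above 1 TPM, led by RTN4 at 243, 216 and 201 TPM and ARV1 at 97.1, 85.8 and 85.6 TPM. S1PR1, S1PR2, S1PR3, S1PR4, S1PR5, SPNS2, ELOVL2 and FA2H were named after their values were seen.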

How the data were processed

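RNA-seq was performed by the authors on 3 replicates of MCF10A cells. Reads were mapped to hg38 and counted with Seq2science, and the submitters' processing notes name fastp, STAR and MultiQC. The authors deposited the TPM of 62754 genes per replicate. Tool versions, annotation release and use of strand are not given in the sources used here.

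Names, coordinates and gene lengths came from GENCODE release 44, in which 62700 genes were found. TPM times length (longest transcript, 1 base less per exon) was expressed in multiples of the lowest product above 0 of each replicate, which gave whole numbers within 0.001 for 100% of genes and was taken as reads. Intervals and the limit of 3 reads for a count of 0 cover counting error only. The pseudocount was 1 TPM.

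Since there is 1 group, no groups were compared. Reads were compared between replicates by a chi-square test against equal TPM over genes with at least 15 reads, with Benjamini-Hochberg adjustment (threshold 0.05). The test was tried on simulated reads with counting error and changes in some genes only. These reads lacked a shared shift such as that of replicate 3, so the trial does not cover calls that go along with it. Neighboring isoforms were compared within replicates, without genes with 3 or fewer reads in all or with at least 50% of the canonical transcript shared. All 36 genes are named, and of each neighboring list the 2 highest and those on both sides of 1 TPM, beside 8 genes named after their values were seen. The genes, lists and tests were chosen with earlier results of these data known. No protein sequences were used here, and 1 coding sequence is not reported here. Scripts ran in Python 3.11.15 with scipy 1.17.1, pandas 2.3.3 and numpy 2.4.6, and figures were drawn with matplotlib 3.10.9.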

Additional observations from a re-analysis of the deposited data

How the results depend on the processing

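No paired analysis was possible because the labels give only 1 group. The count of sphingolipid genes at or above 1 TPM was 29 or 30 under every alternative tried. CERS4 passed 1 TPM without replicate 3 (1.21 TPM), with TPM rescaled to protein-coding genes (1.13 TPM) and per base of the canonical transcript (1.09 TPM). The counts of the 5 neighboring lists stayed within 1.5 times, as did all counts under the TPM rescalings. For most lists that limit could not be passed upward, as they hold too few genes. Glycosphingolipid synthesis fell from 10 to 7 genes at 2 TPM. CERS4 alone lay on both sides of 1 TPM, and 0 genes did without replicate 3, at a cutoff of 0.5 TPM or at 2 TPM. Leaving out 1 replicate gave between 0 and 1 such genes, a median SD between 0.066 and 0.17 and between 8 and 16 genes that differed beyond counting error, against 21.3% to 46.7% of all genes. Leaving out a replicate cannot move a mean by its SD, so it says nothing about the stability of levels, shares or ratios.

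The length moved the comparisons between genes. Leaving reads undivided by length shifts each log2 ratio by an amount that the 2 gene lengths fix. Those values therefore show the effect of length and do not bear on the order of the isoforms. With reads not divided by length, SPTLC3 held 47.7% and SGPP1 43.2% of their families, and the log2 ratios reversed to -0.13 (SPTLC3 over SPTLC2) and -0.39 (SGPP1 over SGPP2). Other shares then were 52.0% (ORMDL1), 70.7% (CERS2), 66.6% (SGMS2), 81.9% (SMPD4), 53.2% (ASAH1) and 57.7% (SPHK1), and log2 ratios 0.65 (ORMDL1 over ORMDL2), 1.18 (ORMDL2 over ORMDL3), 1.59 (CERS2 over CERS6), 2.11 (CERS6 over CERS5), 0.99 (SGMS2 over SGMS1), 2.73 (SMPD4 over SMPD2), 1.11 (SMPD2 over SMPD1), 0.34 (ASAH1 over ACER3), 3.12 (ACER3 over ACER2) and 0.45 (SPHK1 over SPHK2). Per base of the canonical transcript, which was chosen after seeing the data, the order of none of the 13 pairs of neighboring isoforms turned, but SPTLC1 passed the sum of SPTLC2 and SPTLC3, the sum of SPHK1 and SPHK2 passed SGPL1, and SPTLC1 passed KDSR and CERK. Shares were 50.8% (ORMDL1), 69.2% (SMPD4), 71.97% (ASAH1) and 67.3% (SPHK1), and log2 ratios 0.55 (ORMDL1 over ORMDL2), 1.24 (ORMDL2 over ORMDL3), 0.67 (CERS6 over CERS5), 1.58 (SMPD4 over SMPD2), 1.74 (ASAH1 over ACER3) and 1.05 (SPHK1 over SPHK2). Means moved by over 1 SD for 23 of 36 genes with that length and for 25 with TPM rescaled to protein-coding genes. The latter multiplies every gene by the same factors, 1.09, 1.11 and 1.26 in replicates 1, 2 and 3. The canonical length also came with a common change of scale. These counts therefore do not show which genes are unstable. Depth limits SPTSSB, DEGS2, CERS3, SMPD3 and ACER1, with 2 reads or fewer each.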
